A study of Mus musculus with 12 samples.

Results

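The genes of the chemokine ligand family were followed over 1 circadian day in the urinary bladder of female C57BL/6 wild-type mice, 10 weeks old. The family was taken as every gene name on the array that consists of Ccl, Cxcl, Cx3cl or Xcl and digits alone, with 1 probe per name, the one of highest mean signal over the 12 arrays. This gave 34 names, read by 44 probes, of 27837 names on the array. Names that end in a letter stand outside this rule, such as Ccl21c, whose probe was well above background on all 12 arrays.

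The mice had 2 weeks of 12 h light and 12 h dark and then constant darkness, and total RNA of the bladder was hybridised to Agilent 1-colour (Cy3) arrays. There were 2 arrays at each circadian time (CT) of 0, 4, 8, 12, 16 and 20 h, where the subjective day, in which mice rest, runs from CT0 to CT12 and the subjective night from CT12 to CT24. The groups share strain, sex, age and housing, and the labels name no mutation or agent. The labels do not say how long darkness had lasted or that each array held a mouse of its own, so p-values measure the spread between arrays, which may be technical.

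Chemokines are small secreted proteins that draw leukocytes along a gradient by binding receptors with 7 membrane spans, and they are named after the spacing of their first cysteines (CC, CXC, CX3C and C). Inflammatory members are switched on by cytokines and microbial products through NF-kB and interferon signalling and recruit monocytes, neutrophils, eosinophils or effector T cells. Homeostatic members are made without a stimulus and keep resident cells in their place. In the bladder, chemokines from the lining epithelium (urothelium), the stroma and resident macrophages call in neutrophils and monocytes during infection.

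Of the 34 names, 26 were detected, meaning well above background on at least 4 arrays, and all 26 were so on all 12. By the same rule 18557 of the 27837 names on the array were detected, and 16674 were well above background on all 12. Levels are log2 signals minus the array's 75th percentile over all probes, so 0 equals that percentile and a step of 1 is a 2-fold change; they compare arrays for 1 probe and do not rank genes. The 8 names not detected were Ccl1, Ccl20, Ccl22, Ccl28, Cxcl1, Cxcl2, Cxcl5 and Cxcl11. Ccl20, a ligand of CCR6, and Cxcl1, a neutrophil attractant, were each well above background on 3 arrays and Cxcl5, another neutrophil attractant, on 2, while Ccl1, Ccl22, Ccl28, Cxcl2 and Cxcl11 were so on none. Of the 5 ligands of CXCR2, the receptor of neutrophils, 3 were thus not detected. As the array holds whole bladder, fewer cells of a type and less RNA per cell cannot be told apart in any value below.

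Most ligand probes lay in a few neighbourhoods of the genome. On the mm7 coordinates of the array files, 23 of the 34 names fell into 5 groups whose neighbouring probes lay within 250000 bp. The monocyte and eosinophil attractants Ccl2, Ccl7, Ccl11, Ccl12 and Ccl8, with Ccl1, occupied 139746 bp of chromosome 11 (82118723 to 82258468). Ccl5, Ccl9, Ccl6, Ccl3 and Ccl4 occupied 138816 bp of the same chromosome (83595699 to 83734514). On chromosome 5, Cxcl5, Cxcl7, Cxcl4, Cxcl15, Cxcl1 and Cxcl2 lay at 90732453 to 90894807, and the interferon-inducible Cxcl9, Cxcl10 and Cxcl11 at 92310412 to 92348495. Ccl22, Cx3cl1 and Ccl17 lay on chromosome 8 at 93339853 to 93400973. Detection differed along the chromosome 5 group, where the probes of the platelet chemokines Cxcl7 and Cxcl4 and of Cxcl15 were detected and those of their neighbours Cxcl5, Cxcl1 and Cxcl2 were not. No annotation of mm7 was used, so no probe is placed in an exon or UTR here.

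Promoter windows of RefSeq (GRCm38.p6), 250 bases before to 50 after the transcription start, were matched for 25 of the 34 names. No window was held for Ccl2, Ccl4, Ccl5, Ccl7, Ccl11, Ccl24, Cxcl5, Cxcl11 and Cxcl16, so these were not searched. The letters GGGA, any base and then TTTCC, a form of the NF-kB site, were searched on both strands. They occurred in 2 of the 25 names, Cxcl1 and Cxcl2, against 0.466% of 27025 genes (0.411% of 32851 windows). Both stretches are shown because these neutrophil attractants were among the names not detected; each is on the plus strand, with the motif in capitals, at chr5:90891149-90891208 for Cxcl1 and chr5:90903777-90903836 for Cxcl2.
Cxcl1: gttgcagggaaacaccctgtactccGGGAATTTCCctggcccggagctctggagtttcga
Cxcl2: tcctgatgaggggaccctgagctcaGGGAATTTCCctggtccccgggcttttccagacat
The same 10 letters, GGGAATTTCC, stood in both. The E-box CACGTG, the letters bound by the circadian activators CLOCK and BMAL1, was in 0 of the 25 names with a window. It was in 8.09% of all genes (7.15% of all windows). This says only that these letters are not in the windows searched.

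The question was which ligand genes changed over the circadian day. A wave with a 24 h period was fitted to every detected name with limma, with Benjamini-Hochberg adjustment over all 18557 names tested and a threshold of 0.05. Past it was 1 of the 26 ligand genes, against 0.62% of all names tested. That gene was Cxcl12, which encodes the ligand of CXCR4 that stromal and endothelial cells make and that retains leukocytes and progenitor cells in tissues. At an unadjusted p under 0.05 there were 8 of 26 ligand genes, against 15.6% of all names. These were, in the order of their p, Cxcl12, Ccl11, Ccl7, Ccl25, Ccl12, Cxcl14, Ccl2 and Ccl24. An F-test over the 6 times, which asks for a difference of any shape, took 0 of 26 past the threshold in limma (0.0754% of all names) and 4 at an unadjusted p under 0.05 (19.1% of all names), which were Ccl25, Cxcl12, Ccl11 and Cxcl4.

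Cxcl12 rose from the start of the subjective day to its end and fell over the subjective night. Its probe (chromosome 6, 117207552 to 117207611) read 2.41 and 2.38 at CT0, 2.95 and 2.58 at CT4, 2.97 and 3.12 at CT8, 3.04 and 3.03 at CT12, 2.94 and 2.8 at CT16, and 2.63 and 2.61 at CT20. Both CT0 arrays lay below all others, and the CT8 and CT12 arrays did not overlap with those of CT0, CT4 or CT20. The fitted peak stood 1.55-fold above the trough (1.45 to 1.67 at 1 SE; amplitude 0.32 ± 0.05, log2, SE, 12 arrays) and fell at CT10.8 ± 0.62 h (limma adjusted p = 0.0472). A second probe of the gene gave 1.53-fold with a peak at CT9.74 (limma unadjusted p = 0.00144).

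This call stood close to the threshold. With 1 array left out it held without CT4 replicate 1 and was lost without each of the other 11 (limma adjusted p = 0.0242 to 0.0999 over the 12 fits), while the amplitude stayed between 0.30 and 0.33. Each slide held 2 neighbouring times (CT0 with CT4, CT8 with CT12, CT16 with CT20), and with slide as a fixed block, which uses differences within slides alone, the fold was 1.65 and the peak CT9.51 (limma unadjusted p = 0.0179, adjusted p = 0.283). Within slides, Cxcl12 stood 0.37 ± 0.13 (log2, SE) higher at CT4 than at CT0, differed by -0.01 ± 0.13 between CT12 and CT8, and stood 0.25 lower at CT20 than at CT16 (-0.25 ± 0.13), with limma adjusted p of 0.483, 0.988 and 0.414. Marker sums add signals before log2 is taken, so the brightest probes weigh most. Summed over their lists, markers of fibroblasts ranged from 8.97 to 9.44 and those of endothelium from 3.01 to 3.36, with 5 of 5 detected in each. The highest fibroblast sum was on CT12 replicate 1 and the highest endothelial sum on CT16 replicate 1. Their part in the result was not tested.

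The bases just upstream of Cxcl12 are shown for the 1 ligand gene past the threshold. They are the 120 bases at chr6:117168415-117168534 of GRCm38.p6 (RefSeq), plus strand, and end at the base before the start of transcription.
Cxcl12: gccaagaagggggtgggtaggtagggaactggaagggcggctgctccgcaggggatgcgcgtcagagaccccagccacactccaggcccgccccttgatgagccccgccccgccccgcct
Of these bases 71.7% are G or C, against a median of 54.2% over the same stretch of all 32851 windows, and CG occurs 8 times.

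**Figure D1:**
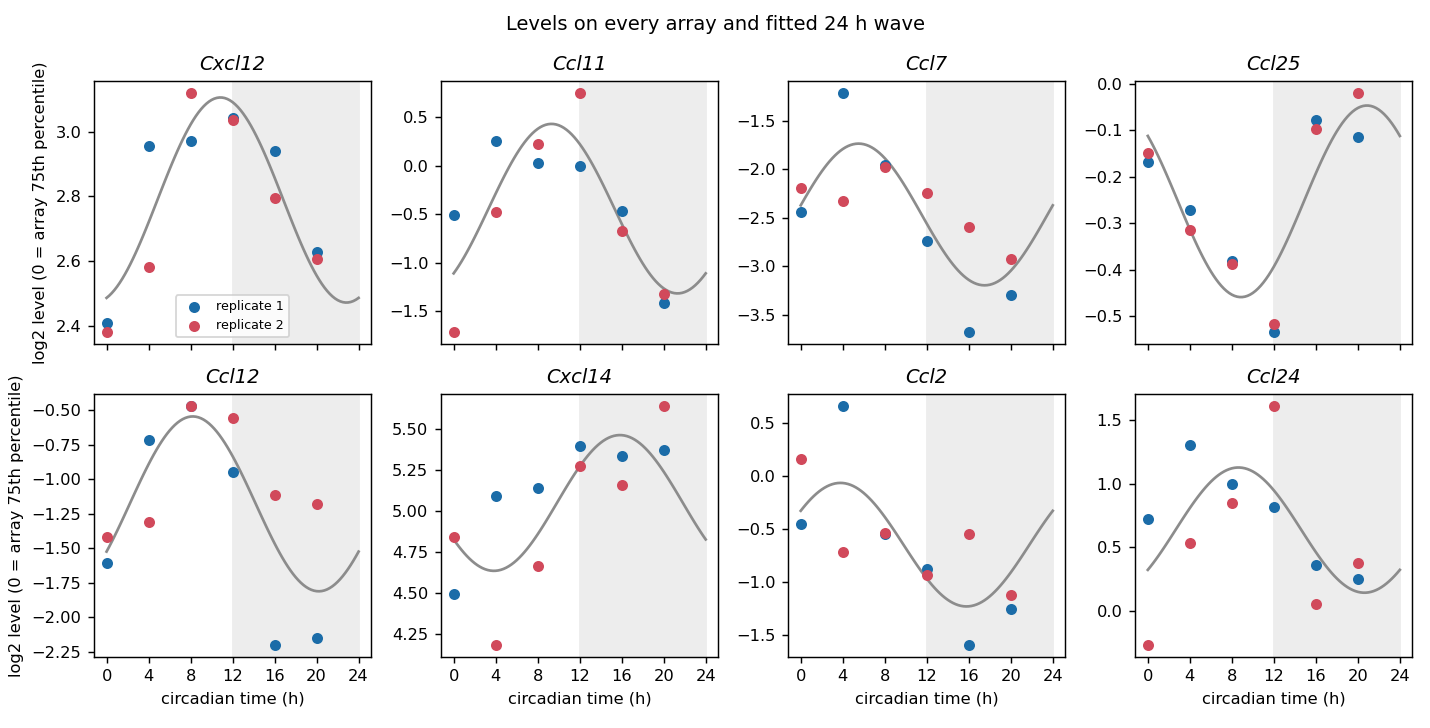
Level on every array (log2, 0 is the array's 75th percentile; each panel has its own axis) against circadian time for the 8 ligand genes with an unadjusted p under 0.05. Points are single arrays coloured by replicate number, the line is the fitted 24 h wave and grey marks the subjective night; Cxcl12 runs from 2.38 at CT0 to 3.12 at CT8.

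The 2 genes grouped here as ligands of CCR3, the receptor that eosinophils carry, had their fitted peaks late in the subjective day. The grouping was made for the text and was not measured, and other ligands of the family were not sorted by their binding to CCR3. Ccl11 (eotaxin) read -0.50 and -1.71 at CT0, 0.26 and -0.48 at CT4, 0.03 and 0.22 at CT8, -0.00 and 0.75 at CT12, -0.47 and -0.67 at CT16, and -1.42 and -1.32 at CT20. The 4 arrays of CT8 and CT12 all lay above the 6 of CT0, CT16 and CT20. The fitted fold was 3.37 (2.70 to 4.19 at 1 SE) with a peak at CT9.32 ± 0.69 h, and the test was missed (limma adjusted p = 0.0648). With slide as a fixed block the fold was 4.26 at CT10.4 (limma adjusted p = 0.328). Over 12 settings other than single left-out arrays, the limma adjusted p ran from 0.0434 to 0.328, with 3 of the 12 past the threshold. Ccl11 passed without CT0 replicate 1 (limma adjusted p = 0.0482, 12 leave-one-out fits from 0.0482 to 0.143) and in 3 other settings, with normexp background correction, in the authors' value table and among names well above background on all arrays.

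Ccl24 (eotaxin-2) read 0.72 and -0.26 at CT0, 1.30 and 0.54 at CT4, 1.0 and 0.85 at CT8, 0.82 and 1.61 at CT12, 0.36 and 0.06 at CT16, and 0.26 and 0.38 at CT20. The lower CT0 array was the lowest of the 12 for both eotaxins and CT12 replicate 2 the highest. The fold of Ccl24 was 1.97 (1.59 to 2.46 at 1 SE) at CT8.63 ± 1.23 h (limma adjusted p = 0.273), and its second probe gave 2.11-fold at CT8.49. With slide as a fixed block the fold of Ccl24 was 1.62 at CT9.21 (limma adjusted p = 0.842).

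The same pair of arrays stood at the ends of the adipocyte markers. The summed level of Adipoq, Plin1, Cfd and Lep, 4 of 4 detected, was 5.35 on CT0 replicate 2 and 8.56 on CT12 replicate 2, with 6.44 to 8.52 on the other arrays. Without these 2 arrays, a setting chosen after the data were seen, Ccl11 had a fold of 2.58 at CT8.29 (limma unadjusted p = 0.000931, adjusted p = 0.103) and Ccl24 a fold of 1.69 at CT6.00 (unadjusted p = 0.00918, adjusted p = 0.188). The defining eosinophil gene Epx was not detected. Of the eosinophil list 2 of 3 were detected, and its sum ranged from -5.05 to -3.77, both ends at CT4.

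**Figure D2:**
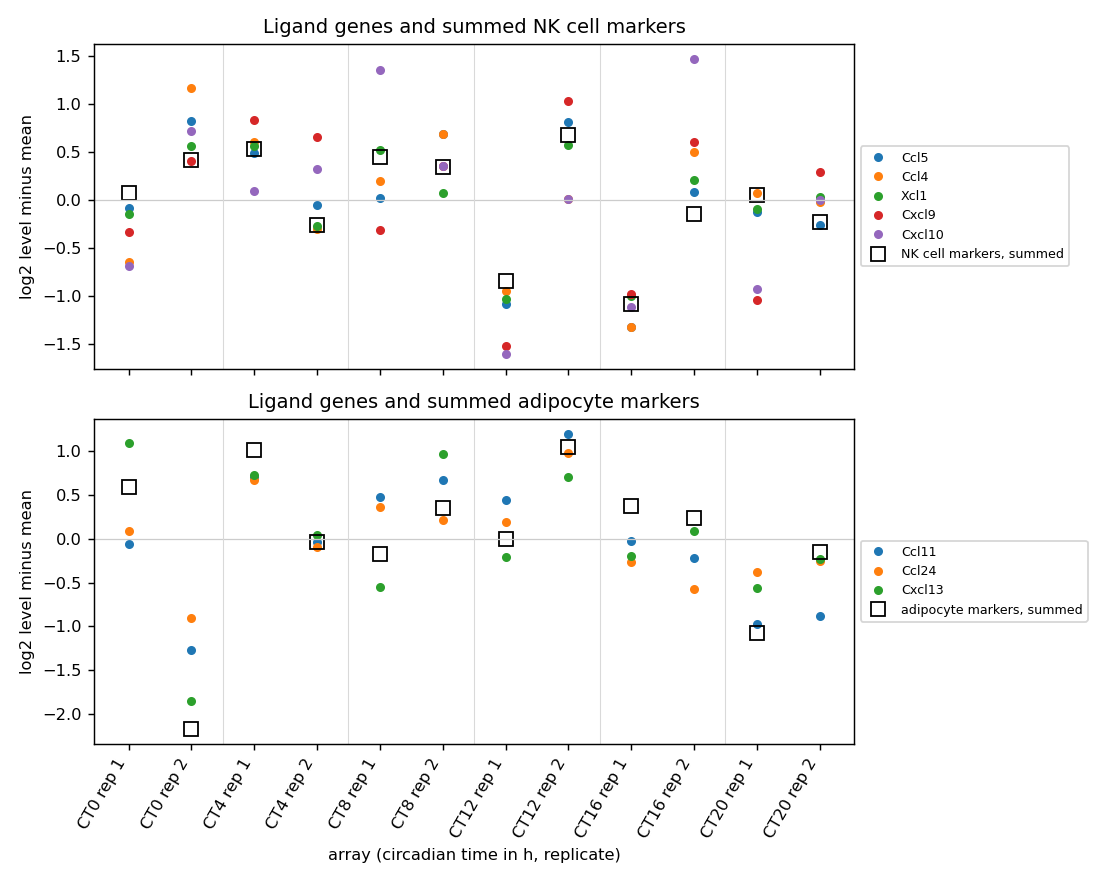
Level minus the mean over 12 arrays (log2) on each array, for 5 ligand genes with the summed NK cell markers (above) and 3 ligand genes with the summed adipocyte markers (below); points are ligand genes and open squares marker sums. The NK cell sum is lowest on CT16 replicate 1 and CT12 replicate 1, and the adipocyte sum is lowest on CT0 replicate 2.

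The 4 genes grouped here as ligands of CCR2, a receptor that brings monocytes out of the blood, were all detected. This was a grouping for the text, and which receptor each ligand uses was not measured. Of the 4, 3 had an unadjusted p under 0.05 and none passed, against 15.6% and 0.62% of all names tested. Ccl7 (MCP-3) read -2.44 and -2.19 at CT0, -1.21 and -2.33 at CT4, -1.96 and -1.97 at CT8, -2.74 and -2.24 at CT12, -3.68 and -2.59 at CT16, and -3.30 and -2.93 at CT20. Of the CT16 and CT20 arrays, 3 lay below all 8 arrays of the other times, and the higher CT16 array lay among those. The fold was 2.76 (2.23 to 3.41 at 1 SE) at CT5.51 ± 0.79 h (limma adjusted p = 0.0997), and the second probe gave 2.67-fold at CT5.76 (limma unadjusted p = 0.000512).

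Ccl12 (MCP-5, a mouse CCR2 ligand) read -1.61 and -1.42 at CT0, -0.72 and -1.31 at CT4, -0.47 and -0.47 at CT8, -0.95 and -0.56 at CT12, -2.20 and -1.11 at CT16, and -2.15 and -1.18 at CT20. The CT8 pair was the highest and did not overlap with any other time, and the pairs at CT16 and CT20 each spanned about 1 unit. The fold was 2.41 (1.94 to 2.97 at 1 SE) at CT8.21 ± 0.92 h (limma adjusted p = 0.148).

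Ccl2 (MCP-1, the main monocyte attractant) read -0.45 and 0.16 at CT0, 0.66 and -0.72 at CT4, -0.55 and -0.54 at CT8, -0.88 and -0.94 at CT12, -1.59 and -0.55 at CT16, and -1.26 and -1.13 at CT20. The CT4 arrays held the highest value and one of the middle values, so the 2 arrays of 1 time spanned much of the day's range. Its probe is spotted 10 times on the array, and the SD between these spots was 0.0545 to 0.0932 (log2) within an array, far less than the difference between the CT4 arrays. The fold was 2.24 (1.75 to 2.87 at 1 SE) at CT3.78 ± 1.16 h (limma adjusted p = 0.245). The fourth, Ccl8 (MCP-2), ranged from 0.13 on CT12 replicate 1 to 2.51 on CT0 replicate 1, with a fold of 2.07 at CT4.14 ± 2.00 h (limma adjusted p = 0.517).

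With slide as a fixed block the folds of Ccl2 and Ccl12 were 1.47 and 1.89, and that of Ccl7 was 2.37 (limma adjusted p = 0.585 to 0.906 for the 3), and that of Ccl8 was 1.37. All 10 macrophage and monocyte markers that were measured were detected, and their sum ranged from 6.50 on CT20 replicate 2 to 7.15 on CT12 replicate 2. Lyz2, the brightest of them (mean level 6.39, next C1qa at 2.40), weighed most in this sum and had the same lowest and highest array. No other marker was lowest on CT20 replicate 2, and all but Adgre1 and Cd14 were highest on CT12 replicate 2. Of the 10 genes Cd163 alone, a scavenger receptor of resident macrophages, passed the 24 h test, against 0.62% of all names tested. Its limma adjusted p of 0.0434 was close to the threshold. Cd163 was lowest on CT0 replicate 2 and highest on CT12 replicate 2, the arrays at the ends of the adipocyte marker sum. Ccr2, the receptor itself, had a fold of 1.5 at CT5.29 ± 1.68 h that did not pass (limma adjusted p = 0.430). The part of these cells in the ligand values was not tested.

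The inflammatory CC ligands Ccl3, Ccl4, Ccl5, Ccl6 and Ccl9, which attract T cells, NK cells or macrophages, were detected for 5 of 5 names. None had an unadjusted p under 0.05, against 15.6% of all names tested. Their fitted folds ran from 1.36 for Ccl9 to 2.34 for Ccl3, with peaks between CT3.10 and CT6.74 (limma adjusted p = 0.426 to 0.663). The fold of Ccl3 was 1.39 in the authors' value table, 1.43 with normexp and 5.5 with slide as a fixed block, and that of Ccl4 was 1.72, or 2.98 with the block. Ccl5 (RANTES), made by T and NK cells, read 1.67 and 2.58 at CT0, 2.24 and 1.70 at CT4, 1.77 and 2.45 at CT8, 0.67 and 2.57 at CT12, 0.43 and 1.84 at CT16, and 1.63 and 1.49 at CT20. The lowest arrays, CT16 replicate 1 and CT12 replicate 1, stood beside partners of the same time within the range of the rest. Its second probe gave 2.06-fold at CT3.94 (limma unadjusted p = 0.141). Ccl3 and Ccl4 (MIP-1 alpha and beta) also had their lowest level on CT16 replicate 1, at -5.68 and -3.94, and Ccl6 had its lowest, 2.13, on CT12 replicate 1.

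The CXCR3 ligands Cxcl9 and Cxcl10, interferon-inducible attractants of activated T and NK cells, varied more between the arrays of a time than between times. Cxcl10 read -1.48 and -0.06 at CT0, -0.69 and -0.46 at CT4, 0.57 and -0.43 at CT8, -2.40 and -0.78 at CT12, -1.91 and 0.69 at CT16, and -1.72 and -0.79 at CT20. The CT16 pair alone held both the highest array and the second lowest. Cxcl9 read -1.98 and -1.23 at CT0, -0.80 and -0.98 at CT4, -1.96 and -1.28 at CT8, -3.16 and -0.60 at CT12, -2.62 and -1.04 at CT16, and -2.69 and -1.34 at CT20. Its highest and its lowest array were both of CT12. The SD between the arrays of a time was 1.05 for Cxcl10 and 0.996 for Cxcl9, and their folds were 1.73 and 1.81 (limma adjusted p = 0.788 and 0.689); with slide as a fixed block that of Cxcl10 was 4.41 (limma adjusted p = 0.734).

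On CT16 replicate 1 and CT12 replicate 1 the NK cell markers Ncr1, Klrb1c, Gzma, Prf1 and Nkg7, 5 of 5 detected, were low. Their summed level was -1.16 on CT16 replicate 1 and -0.92 on CT12 replicate 1, against -0.34 to 0.61 on the other 10 arrays. It was -0.02 on CT20 replicate 1, where Cxcl9 was next lowest after CT12 replicate 1 (-2.69) and Cxcl10 read -1.72. The 7 measured T cell markers were all detected. Their sum was lowest on CT12 replicate 1 (-1.26) and next lowest on CT16 replicate 1 (-1.18), with -1.01 to -0.21 elsewhere (-0.48 on CT20 replicate 1). Xcl1 (lymphotactin), a product of NK and CD8 T cells that draws cross-presenting dendritic cells, also had its lowest array at CT12 replicate 1 (-5.50) and its highest at CT12 replicate 2 (-3.89), with a fold of 1.54 at CT3.61 (limma adjusted p = 0.648). Counted over all 26 detected ligand genes, CT12 replicate 1 and CT16 replicate 1 were each the lowest array for 6 genes, and CT12 replicate 2 was the highest for 7. The lowest and highest arrays were not counted over all names, so these counts have no share to be set against. The part of lymphocyte RNA in these values was not tested.

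**Figure D3:**
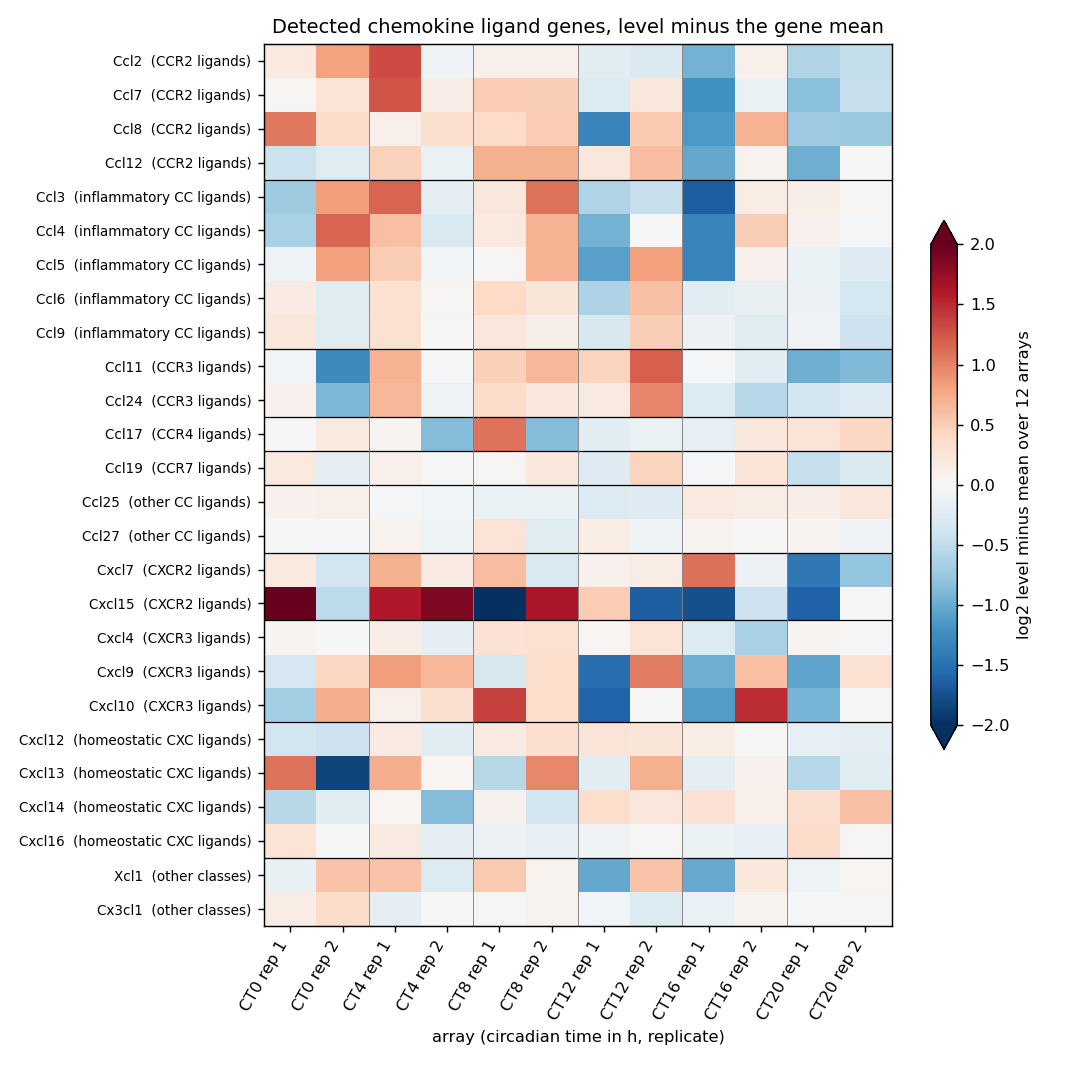
Level of each of the 26 detected ligand genes on each of the 12 arrays, as the difference from that gene's mean over the arrays (log2), with genes grouped by receptor or class; the colours end at 2 and -2. Columns of blue at CT12 replicate 1 and CT16 replicate 1 run across the inflammatory CC ligands, Cxcl9 and Cxcl10, and Cxcl15 has the widest range.

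Cxcl4, now named Pf4, is stored in platelets and also made by macrophages, and it binds a form of CXCR3 in humans. It read 3.59 and 3.54 at CT0, 3.67 and 3.34 at CT4, 3.82 and 3.84 at CT8, 3.57 and 3.81 at CT12, 3.26 and 2.88 at CT16, and 3.59 and 3.50 at CT20. The CT16 pair lay below all other arrays. From CT16 to CT20, on 1 slide, the level was higher by 0.47 ± 0.16 (log2, SE; limma unadjusted p = 0.0173, adjusted p = 0.261), and the F-test over the 6 times gave an adjusted p of 0.208. Cxcl7 (now Ppbp), the other platelet chemokine and a CXCR2 ligand, was lower at CT20 than at CT16 by the same test (-1.61 ± 0.47, limma unadjusted p = 0.00959, adjusted p = 0.223).

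Cxcl15 (lungkine), a CXCR2 ligand of mice known from lung epithelium, had the widest spread of the family. It read -0.81 and -3.72 at CT0, -1.59 and -1.33 at CT4, -5.23 and -1.56 at CT8, -2.69 and -4.84 at CT12, -4.94 and -3.61 at CT16, and -4.82 and -3.20 at CT20. The highest and the lowest array differed 21.3-fold, and 2 arrays of 1 time, those of CT8, spanned most of that range. The fitted wave was 6.20-fold (3.05 to 12.6 at 1 SE) at CT3.26 ± 1.49 h and did not pass (limma adjusted p = 0.369). The fold was 3.32 with normexp, 3.18 in the authors' value table and 2.57 with slide as a fixed block. The second probe gave 9.65-fold at CT3.53 with the same lack of a call (limma unadjusted p = 0.0856).

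Of the homeostatic CXC ligands 4 of 4 were detected and Cxcl12 alone passed, against 0.62% of all names tested. Cxcl14 and Cxcl16 had their fitted peaks in the subjective night. Cxcl14, an epithelial chemokine that attracts monocytes and dendritic cell precursors, read 4.50 and 4.84 at CT0, 5.09 and 4.18 at CT4, 5.14 and 4.66 at CT8, 5.40 and 5.27 at CT12, 5.33 and 5.16 at CT16, and 5.37 and 5.64 at CT20. All 6 arrays from CT12 to CT20 lay above all 6 from CT0 to CT8. The fold was 1.78 (1.5 to 2.11 at 1 SE) at CT15.8 ± 1.13 h (limma adjusted p = 0.235), and 1.46 at CT18.5 with slide as a fixed block (limma adjusted p = 0.819). Markers of urothelium, 6 of 6 detected, summed to 8.37 on CT12 replicate 1 and 9.10 on CT20 replicate 2, and their part in the result was not tested. Cxcl16, a membrane-bound ligand of CXCR6, had a fold of 1.22 at CT22.4 ± 1.77 h (limma adjusted p = 0.456).

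Cxcl13, the B cell attractant of lymphoid follicles, read -0.92 and -3.87 at CT0, -1.29 and -1.97 at CT4, -2.57 and -1.06 at CT8, -2.23 and -1.31 at CT12, -2.21 and -1.93 at CT16, and -2.58 and -2.24 at CT20. The CT0 pair held both the highest and the lowest of the 12 arrays. The fold was 1.69 (1.1 to 2.62 at 1 SE), with a limma adjusted p of 0.740. B and plasma cell markers, 5 of 6 detected and without Cd79a, summed to -1.23 on CT0 replicate 1 and 0.06 on CT8 replicate 2, so the array on which Cxcl13 was highest was the lowest for these markers. The array on which it was lowest, CT0 replicate 2, was also that of the lowest adipocyte sum. The part of neither cell type was tested.

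Ccl25 (TECK), the ligand of CCR9 that guides T cells to thymus and gut, differed little between the arrays of a time. It read -0.17 and -0.15 at CT0, -0.27 and -0.31 at CT4, -0.38 and -0.39 at CT8, -0.53 and -0.52 at CT12, -0.08 and -0.10 at CT16, and -0.11 and -0.02 at CT20. The pairs of CT4, CT8 and CT12 stepped down without overlap and the CT16 pair lay above all of them, a difference that crosses from 1 slide to the next. The SD within a time was 0.0316, the smallest of the 26 genes, and the fold was 1.33 at CT20.9 ± 0.80 h (limma adjusted p = 0.103, and 0.118 for any difference between the times). With slide as a fixed block the fold was 1.16 at CT0.15 (limma adjusted p = 0.696). The other probes of the gene gave 1.23-fold and 1.15-fold waves (limma unadjusted p = 0.460 and 0.514).

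Cx3cl1 (fractalkine), the membrane-tethered ligand of CX3CR1 on monocytes and macrophages, read 2.92 and 3.14 at CT0, 2.60 and 2.77 at CT4, 2.79 and 2.85 at CT8, 2.72 and 2.50 at CT12, 2.65 and 2.85 at CT16, and 2.76 and 2.77 at CT20. Both CT0 arrays lay above all others. From CT0 to CT4, on 1 slide, the difference was negative (-0.35 ± 0.12, log2, SE; limma unadjusted p = 0.0230, adjusted p = 0.486), and the 24 h fold was 1.18 (limma adjusted p = 0.509). Ccl17, a CCR4 ligand of dendritic cells, had a fold of 1.32 (limma adjusted p = 0.825) and its highest and lowest arrays were the CT8 pair. Ccl19, a CCR7 ligand that guides dendritic and T cells to lymph nodes, and Ccl27, now Ccl27a, a ligand of CCR10, had folds of 1.28 and 1.05 (limma adjusted p = 0.548 and 0.936); both have near-identical gene copies in the mouse, so these values are uncertain as to the copy.

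Tested from 1 time to the next within a slide, no ligand gene passed in limma. From CT0 to CT4 there were 0 of 26 past the threshold (0.00539% of all names) and 3 at an unadjusted p under 0.05 (9.18%), which were Cxcl12, Cx3cl1 and Ccl11. Ccl11 stood 1.0 ± 0.42 (log2, SE) higher at CT4 (limma adjusted p = 0.538). From CT8 to CT12 limma took 0 of 26 (0% of all names), also 0 at an unadjusted p under 0.05 (13% of all names). From CT16 to CT20 it took 0 (0.00539%) and 2 unadjusted (14.2%), Cxcl7 and Cxcl4. 

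**Figure D4:**
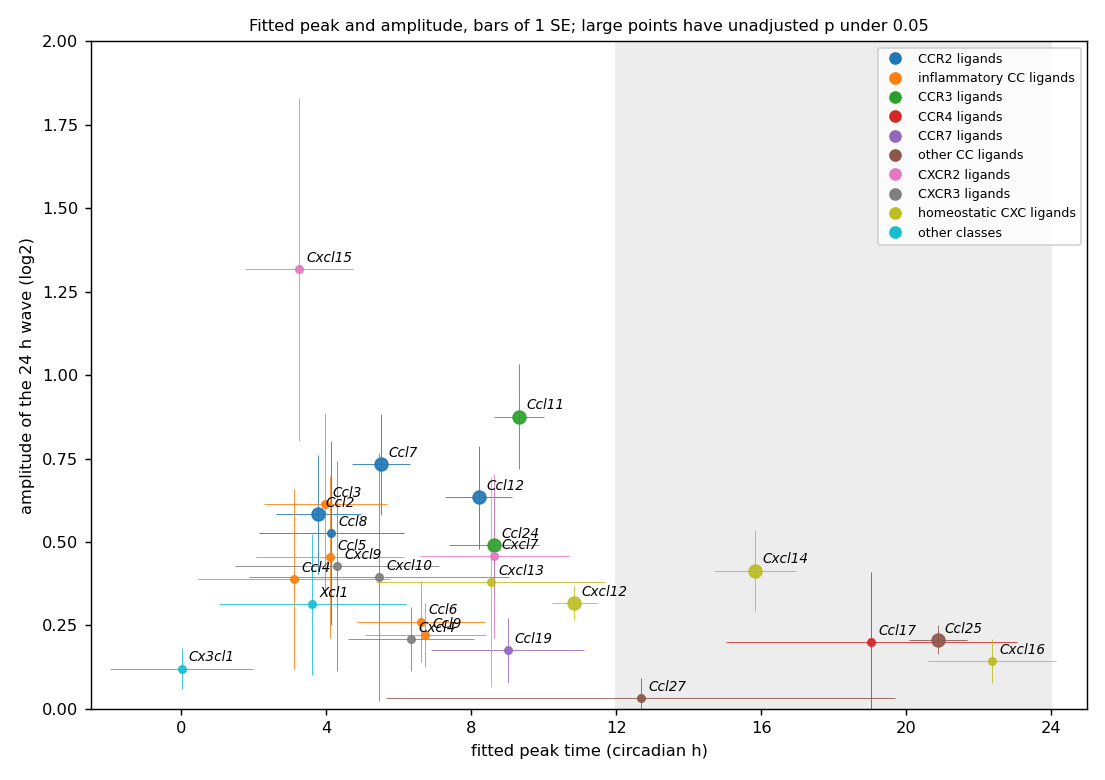
Amplitude of the fitted 24 h wave (log2) against its peak time for the 26 detected ligand genes, coloured by receptor or class, with bars of 1 SE; large points have an unadjusted p under 0.05 and grey marks the subjective night. Of the 26 peaks 21 lie in the subjective day, and Ccl17, Ccl25, Ccl27, Cxcl14 and Cxcl16 lie in the night.

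As a description of the fits, whether called or not, 21 of the 26 ligand genes (80.8%) had their fitted peak from CT0 to CT12, against 45.9% of all names tested. Those in the night were Cxcl14, Ccl25, Cxcl16, Ccl17 and Ccl27. The mean level was highest at CT8 for 10 genes, and lowest at CT20 for 10 and at CT16 for 7, so 17 of 26 had their lowest mean on slide 3. This was not counted over all names, so it is not shown to be particular to the ligand genes. Slide and time cannot be told apart for this count; with slide as a fixed block, 84.6% of ligand genes and 50.6% of all names had a peak in the subjective day. Between scalings the share of all names moved to 37.0% with median scaling, and that of the ligand genes to 76.9%. The median amplitude was 0.39 (log2) in the ligand genes and 0.12 over all names, and the median SD between the arrays of a time was 0.480 against 0.156, so both the waves and the spread were wide. Ligand genes share arrays and neighbourhoods and are not independent of each other.

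The receptors showed no called wave. Of 23 receptor and scavenger genes measured, 18 were detected, and limma took 0 past the 24 h threshold, against 0.62% of all names. There were 4 at an unadjusted p under 0.05 (Cx3cr1, Ackr1, Ackr3 and Ccr3), which is 22.2% against 15.6% of all names. The median amplitude was 0.23. Over the 6 times limma took 0 (0.0754% of all names) and, unadjusted, 5 of 18, against 19.1% of all names. Those not detected were Ccr1, Ccr4, Ccr8, Ccr10 and Cxcr1. Cx3cr1, the receptor of Cx3cl1, ranged from -3.23 to -1.77 with a fold of 1.85 at CT3.19 ± 0.89 h (limma adjusted p = 0.135). Ackr1, which holds chemokines on venules and red cells, had a fold of 1.41 at CT23.9 (limma adjusted p = 0.279). For Cxcl12, its signalling receptor Cxcr4 had a fold of 1.39 at CT20.3 (limma adjusted p = 0.541) and its scavenger Ackr3 one of 1.37 at CT22.9 (limma adjusted p = 0.291). Ccr3, the receptor of both eotaxins, had a fold of 2.33 at CT4.05 (limma adjusted p = 0.317).

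Across the whole series, the 75th percentile of signal was 844 to 984 intensity units per array and the median of all probes lay between -3.83 and -3.67 on the scaled axis, a shift of 0.167 between arrays. No spot was saturated. Sums of hepatocyte markers ran from -1.36 to 4.39, both at CT20, with 5 of 5 measured detected. Smooth muscle markers, 4 of 4 detected, summed to 9.88 to 10.2 and mast cell markers, 5 of 5, to 0.03 to 1.35; neutrophil markers ran from -2.77 to -0.81 without S100a8, which was not detected.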

How the data were processed

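Total RNA of bladder was measured on 12 arrays, 2 per circadian time, grouped by the labels. Spot intensity in the deposited scanner files was background-subtracted and detrended with Agilent Feature Extraction 10.5.1.1 and not normalised between arrays, per the file headers; columns of the deposited files with yes-or-no marks carry values such as well above background. The authors' deposited value table gives log2 values for 27883 probes, all 26 detected ligand genes among them; its columns correlated at r = 0.979 to 0.982 with scanner log2 values across probes, had medians of 8.71 to 8.73, and their normalisation is not given in the sources used here. This table served as an alternative. The submitters' processing notes name R 2.8.1.

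The 43379 spots other than controls, less outlier spots, gave a mean log2 processed signal per probe, scaled by the array's 75th percentile; 271 of 41174 probes lacked a value on some array and were left out. Names are those of the files, and all 34 ligand names matched the RefSeq table (GRCm38.p6). Waves, the F-test over 6 times and 3 steps were fitted with limma 3.58.1 in R 4.3.3, and other values with Python 3.11.15. The waves' fold is peak over trough, with delta-method SEs. The fits were tested on simulated data. No sample was imputed or dropped outside the alternatives, and the number of arrays limits the precision.

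The members and lists were chosen with earlier results of these data known. Values on every array are given for the 8 genes of lowest p in the 24 h fit, the 4 of largest SD and the 4 of highest level, and also for Ccl5, which was chosen after its values were seen. Receptors named are those at the 2 lowest p, and Ccr2, Ccr3, Cxcr4 and Ackr3 were added as the receptors of ligands described. The replicate numbers of the labels do not state a pairing: for the 15 pairs of times, the replicate differences correlated at -0.198 to 0.438 across names, with 10 over 0.1, so the numbers were not taken to pair arrays. Alternatives covered background, scaling, filter, probe choice, replicate and slide blocks, and left-out arrays.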

Additional observations from a re-analysis of the deposited data

How the results depend on the processing

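Of the 26 detected ligand genes, the number past the 24 h threshold in limma was 1. It was 2 with normexp (offset 50), with the authors' value table and with names kept only if above background on all 12 arrays, and 1 with quantile normalisation and with the mean of all probes. It was 0 with median scaling, where 8 had an unadjusted p under 0.05 (2639 of 18557 over all names). With dim probes kept it was 0 of all 34 ligand names, with 10 of the 34 unadjusted (3282 of 27837 over all names). Under a random slide block (correlation 0.152 estimated) it was 0, with 5 unadjusted (1773 of 18557 over all names). Under a fixed slide block it was 0, with 4 unadjusted (2567 of 18557 over all names). In 2 settings chosen after seeing the data, arrays were left out by their markers. Without the 2 arrays at the ends of the adipocyte markers the fold of Cxcl12 was 1.53. Without the 3 arrays highest in hepatocyte markers it was 1.54. Leaving out 1 array changed the amplitude of Cxcl12 to between 0.30 and 0.33. With the replicate number as a block the number past the threshold was 0, with 8 unadjusted (3042 of 18557 over all names). Cxcl12 then had a limma adjusted p of 0.0515. Over all names, 115 passed; this became 63 with median scaling, 49 with no filter, 175 with the filter on all arrays, 28 and 7 with slide as a random and a fixed block, 36 and 18 in the 2 settings chosen later, and 39 to 102 with 1 array left out. The filter changes the number of names tested, and left-out arrays the number of samples; for the others the cause was not tested.

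For any difference between the 6 times, 14 names passed. This became 58 with normexp, 24 with quantile normalisation, 22 with median scaling, 47 with the authors' table, 23 with no filter, 35 with the filter on all arrays, 23 with the mean of probes, 23 with the replicate block, 0 with slide as a fixed block (2844 unadjusted), 4 and 0 (2446 unadjusted) in the 2 later settings, and 6 to 121 with 1 array left out. No ligand gene passed in any of these settings, nor any step in its own settings, fits to the 4 arrays of a slide included. A random slide block could not be fitted for the 6 times or the steps, since slide is set by time. Detection gave 26 names under each rule tried, except that 29 were well above background on at least 1 array. The fitted peak of Cx3cl1 moved to CT13.9 with the mean of all probes, and that of Cxcl4 from CT6.33 to CT0.48 with slide as a fixed block. The second probe of Cx3cl1, which enters that mean, was well above background on 1 array only. It read -3.16 on CT12 replicate 1 and -7.43 or lower on every other array. The filter on all arrays, normexp and the authors' table added Ccl11 to Cxcl12.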

Other observations

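Genes that switch chemokine genes on or relay the signal were measured for 30 names, of which 26 were detected; Il1a, Tnf, Il17a and Csf2 were not. None passed the 24 h test in limma (0.62% of all names), with 6 at an unadjusted p under 0.05 (23.1%, against 15.6% of all names). None passed the F-test over the 6 times (0.0754% of all names), with 10 of 26 unadjusted, against 19.1% of all names. Their median amplitude was 0.15 (log2). Csf1, the growth factor of macrophages, had the lowest p, with levels between 0.71 and 1.48 and a fold of 1.58 at CT8.91 ± 0.68 h (limma adjusted p = 0.0616). Rela, the p65 subunit of NF-kB, had a fold of 1.22 at CT5.27 (limma adjusted p = 0.151).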
